A study of Homo sapiens with 12 samples.

Results

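The genes described here are 10 stress regulators of the ATF4 pathway, namely ATF4, ATF3, DDIT3, TRIB3, CHAC1, SESN2, DDIT4, CEBPB, PPP1R15A and NUPR1. They were taken by gene symbol from the 58735 genes of an RNA-seq count table, and all 10 passed the filter on low counts that left 16891 genes for testing. FDX2-iKO cells were derived from ES2, a human line of ovarian cancer. In them the endogenous FDX2 gene was knocked out by CRISPR-Cas9 and an HA-tagged FDX2 that resists the editing was supplied from a TetON construct. FDX2 is a mitochondrial ferredoxin of iron-sulfur cluster assembly. The tagged protein was made only with doxycycline (Doxy), so Doxy withdrawal caused FDX2 loss. All cells carried the knockout and the construct, and for experiments without a stated clone the study used 1 clone. The 4 conditions were 20% O2 + Doxy, 20% O2 wo Doxy, 3% O2 + Doxy and 3% O2 wo Doxy, with 3 biological replicates each and 12 libraries in all. Cells at 20% O2 were cultured for 6 days with or without Doxy. Cells at 3% O2 had 4 days at 20% O2 and then 3 days at 3% O2, so oxygen and 1 more day in culture cannot be told apart. For cells without Doxy, this was also 1 more day of Doxy withdrawal. No cells without the construct were analysed here, so FDX2 loss and any effect of Doxy itself cannot be told apart either.

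The integrated stress response starts with phosphorylation of the translation factor eIF2alpha, which lowers general protein synthesis and lets ATF4 mRNA be translated. ATF4 protein then binds C/EBP-ATF response elements and raises transcription of other stress regulators, amino acid enzymes and transporters. Faults in mitochondria are known to reach eIF2alpha through the protease OMA1, its substrate DELE1 and the kinase EIF2AK1 (HRI). Because ATF4 is controlled mainly at translation, its mRNA level does not report the amount of ATF4 protein, which was not among the measurements used here. A few of the genes are also known targets of other factors, DDIT4 of HIF-1 and SESN2 of p53.

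Total counts were 24958386 to 34313637 per library (median 29621780). The targeted gene could not be used to check the labels, because FDX2 had only 2 to 13 counts per library and shared 70.9% of its exonic bases with other annotated genes. Keratins KRT8, KRT18 and KRT7, VIM and PAX8 were detected in every library, EPCAM had at most 3 counts, the summed level of the 4 immune markers was at most 0.318 CPM (a gene's counts relative to its library's TMM-scaled total), and the erythroid marker HBB was at 0. The summed level of the 6 markers of the labelled cell type was 3868 to 4693 CPM at 20% O2 + Doxy, 2911 to 3079 at 20% O2 wo Doxy, 4302 to 5432 at 3% O2 + Doxy and 3860 to 4541 at 3% O2 wo Doxy. VIM made up most of it, with means of 2989 CPM at 20% O2 + Doxy, 2124 at 20% O2 wo Doxy and 3629 at 3% O2 + Doxy. PAX8 had a mean of 8.32 CPM at 20% O2 + Doxy. Of the 3 endothelial markers only CDH5 was expressed. The summed level of the 3 was 22.1 to 28.5 CPM at 20% O2 + Doxy, 26.2 to 27.0 at 20% O2 wo Doxy, 28.7 to 36.8 at 3% O2 + Doxy and 40.1 to 51.6 at 3% O2 wo Doxy, while PECAM1 and VWF had at most 6 counts in any library. Whether these marker levels had a part in the results was not tested. Libraries of 1 condition differed in how counts followed the GC content of transcripts, and 9 of the 10 stress regulators have a GC content above the median of tested genes (47.7%), CEBPB the highest at 66.2%.

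The promoters of the stress regulators were read from RefSeq (GRCh38.p14), which had windows of 300 bases, from 250 before to 50 after the start, for 9 of the 10 genes (all but NUPR1), with 1 to 3 windows a gene. They are shown because these genes rose together at 20% O2 and because 3 letter patterns known for the factors concerned can be looked for in them on both strands: TGATGNAA, the core of the C/EBP-ATF response element; TGACGTCA, the palindromic cAMP response element; and ACGTG, the core of the HIF-1 site. Among all 35116 promoter windows, 3.62% held the first, 1.85% the second and 21.4% the third. The 5 stretches with a match are given here, each on the strand of its gene with the matched letters in capitals.
ATF3 (chr1:212565157-212565333, plus strand, upstream of the first annotated exon): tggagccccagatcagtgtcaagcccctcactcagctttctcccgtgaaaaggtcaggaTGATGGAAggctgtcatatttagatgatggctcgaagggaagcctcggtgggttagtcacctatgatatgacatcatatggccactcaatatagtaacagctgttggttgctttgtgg
CHAC1 (chr15:40953251-40953280, plus strand, within an annotated exon, the pattern read on the opposite strand): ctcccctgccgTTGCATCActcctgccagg
PPP1R15A (chr19:48872171-48872391, plus strand, upstream of the first annotated exon): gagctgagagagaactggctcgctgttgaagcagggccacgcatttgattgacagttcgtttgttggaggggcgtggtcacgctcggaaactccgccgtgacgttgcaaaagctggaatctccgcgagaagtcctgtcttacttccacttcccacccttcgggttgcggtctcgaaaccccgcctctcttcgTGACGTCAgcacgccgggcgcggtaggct
DDIT4 (chr10:72273674-72273919, plus strand, upstream of the first annotated exon): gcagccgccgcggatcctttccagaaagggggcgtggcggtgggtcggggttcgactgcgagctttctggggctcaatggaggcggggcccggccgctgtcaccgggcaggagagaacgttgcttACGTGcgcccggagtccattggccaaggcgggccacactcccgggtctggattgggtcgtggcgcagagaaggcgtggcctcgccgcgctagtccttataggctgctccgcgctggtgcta
ATF4 (chr22:39520465-39520494, plus strand, within an annotated exon, ACGTG on both strands, overlapping): ggaggagacggtCACGTGgtcgcggcggaa

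The match in ATF3 began 191 bases before the start, that in CHAC1 209, that in PPP1R15A 58 and that in DDIT4 125. Only 1 of the 2 windows of ATF3 held it. The windows of DDIT3, TRIB3, SESN2 and CEBPB held none of the 3 patterns, which says only that these letters were not in these windows. A match is a string of letters and not a measured binding site.

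At 20% O2, all 10 stress regulators were higher without Doxy than with Doxy, by 1.33-fold (ATF4) to 14.9-fold (NUPR1), and their median log2 fold change was 1.77. NUPR1, DDIT3, ATF3 and DDIT4 rose most. The same test called 35.3% of all 16891 genes changed and 17.6% higher, with a median log2 fold change over all genes of 0.01. In all 10 genes the 3 libraries without Doxy lay above the 3 with Doxy, a separation in either direction that 52.3% of tested genes showed. RNA came from whole cultures, so more responding cells and a higher level per cell cannot be told apart.

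At 3% O2, FDX2 loss raised 5 of the 10 (ATF4, ATF3, DDIT3, PPP1R15A and NUPR1) and none was called lower, against 7.31% of all genes called, 4.2% higher and 3.11% lower. The median log2 fold change of the 10 was 0.58, and that of all genes was 0.04. The 3 libraries of each condition lay apart in the same 5 genes, as in 24.6% of tested genes. This count depended on the fit, since edgeR's test on the 6 libraries at 3% O2 alone called 2 of the 10 (DDIT3 and PPP1R15A).

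The difference between the responses at 3% and at 20% O2 was itself tested, in the same model. Doxy withdrawal was also longer at 3% O2, so oxygen and the length of FDX2 loss cannot be told apart in this difference. Of the 10 genes, 6 responded less at 3% O2 (ATF3, DDIT3, CHAC1, SESN2, DDIT4 and NUPR1) and none responded more, against 7.29% of all genes called, 4.08% lower and 3.21% higher. Over all genes this balance turned without 3% O2 + Doxy replicate 3 (1251 higher and 940 lower, in place of 542 and 689), while the counts of the 10 genes stayed between 5 and 7 with any 1 library left out. For ATF4, TRIB3, CEBPB and PPP1R15A the difference did not pass the threshold.

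**Figure D1:**
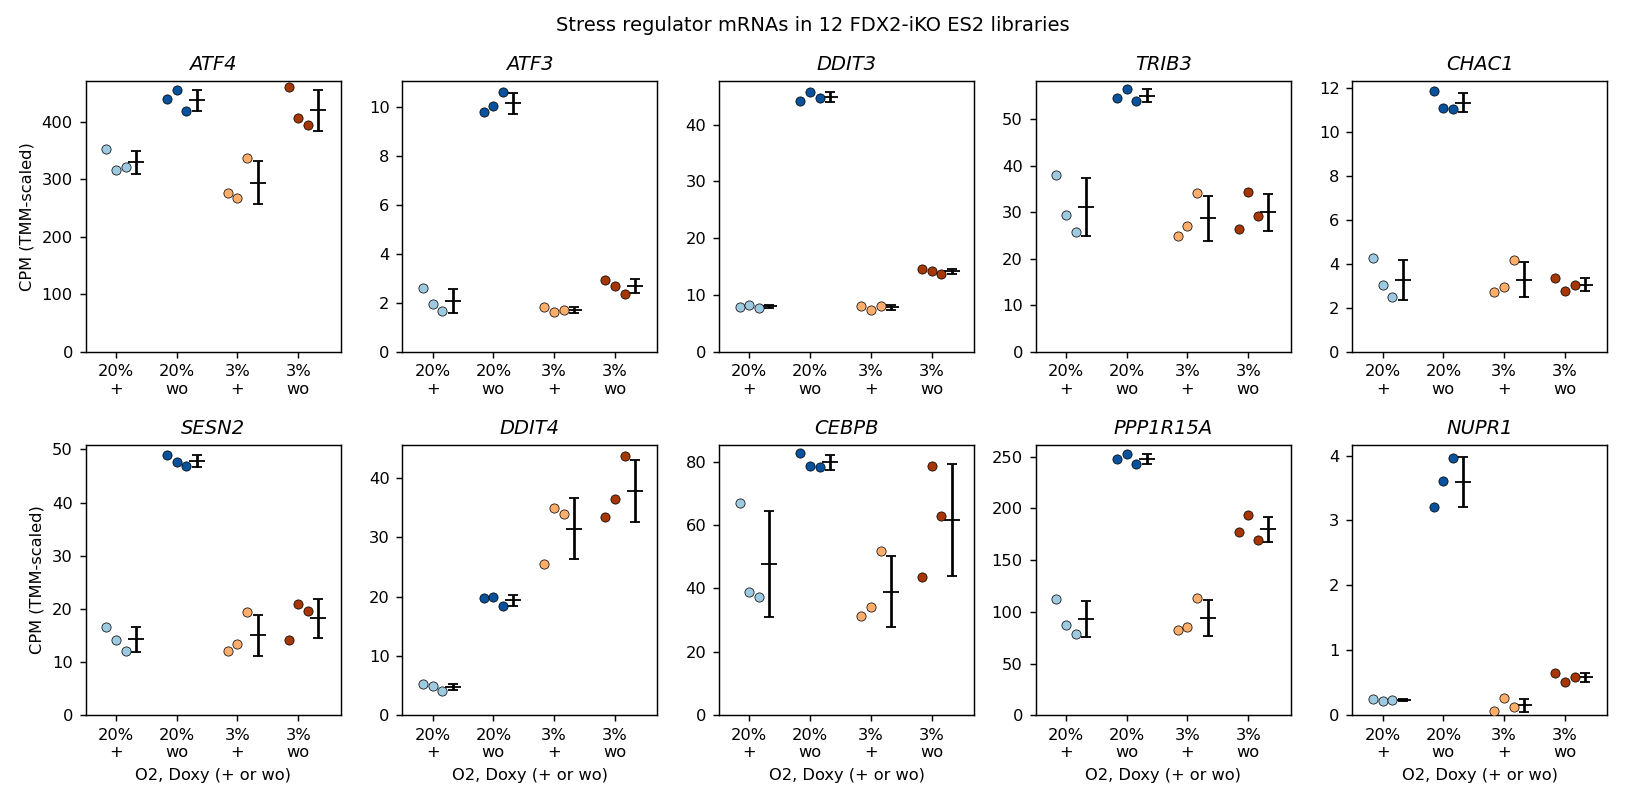
Levels of the 10 stress regulators in CPM after TMM scaling (y axis, from 0, a scale for each gene) in 4 conditions (x axis, O2 with Doxy marked + or wo). Each point is 1 of 3 libraries, drawn in replicate order, and the bar beside them is the mean with its SD. Libraries at 20% O2 wo Doxy stand above those at 20% O2 + Doxy in every panel, and DDIT4 is the gene whose 3% O2 libraries all stand above the 20% O2 ones.

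Levels differed widely between these genes. Per kilobase of exon, mean levels at 20% O2 + Doxy ran from 131 CPM per kb for ATF4 through 30.1 for PPP1R15A, 24.4 for CEBPB, 9.07 for TRIB3, 6.09 for DDIT3, 4.14 for SESN2, 2.33 for DDIT4, 1.59 for CHAC1 and 0.511 for ATF3 down to 0.0416 for NUPR1. All further levels are CPM of 1 gene, not divided by length.

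ATF4 (ENSG00000128272, chr22:39519695-39522685, plus strand, GRCh38) encodes the transcription factor at the centre of the pathway. Its levels were 352, 315 and 320 CPM at 20% O2 + Doxy and 439, 455 and 419 at 20% O2 wo Doxy. At 3% O2 they were 276, 268 and 336 with Doxy and 460, 406 and 394 without. Both pairs of conditions lay apart, and the 2 conditions without Doxy overlapped each other. ATF4 rose by 0.41 ± 0.09 (log2 fold change ± SE, adjusted p = 0.00491, edgeR) at 20% O2 and by 0.52 ± 0.09 (adjusted p = 0.00722) at 3% O2. The difference between these responses was 0.11, with a 95% interval from -0.17 to 0.39 (adjusted p = 0.651), an interval that holds both a smaller and a larger response at 3% O2.

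ATF3 (ENSG00000162772, chr1:212565334-212620777, plus strand) encodes a bZIP transcription factor that is induced by ATF4 and by many other stresses, and TGATGGAA was found in 1 of its promoter windows. It was at 2.59, 1.96 and 1.65 CPM at 20% O2 + Doxy and at 9.79, 10.02 and 10.6 at 20% O2 wo Doxy. At 3% O2 its levels were 1.81, 1.60 and 1.68 CPM with Doxy and 2.94, 2.70 and 2.37 without. The 20% O2 wo Doxy libraries stood far above the other 9, and those at 3% O2 wo Doxy overlapped the ones at 20% O2 + Doxy. ATF3 rose 4.91-fold at 20% O2 (log2 fold change 2.29 ± 0.16, adjusted p = 1.86e-06, edgeR) and 1.57-fold at 3% O2 (0.65 ± 0.16, adjusted p = 0.0347). The response was smaller at 3% O2 by 3.13-fold (adjusted p = 0.00204). Its call at 3% O2 was lost when any 1 of the 6 libraries at 3% O2 other than replicate 3 without Doxy was left out (adjusted p = 0.0626 to 0.121).

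DDIT3 (ENSG00000175197, chr12:57516588-57521737, minus strand) encodes CHOP, a transcription factor known for its part in death under prolonged stress. Its counts were 246, 228 and 264 at 20% O2 + Doxy and 1376, 1447 and 1373 at 20% O2 wo Doxy, or 7.86, 8.26 and 7.76 against 44.2, 45.7 and 44.6 CPM. At 3% O2 the levels were 8.13, 7.33 and 8.05 CPM with Doxy and 14.6, 14.2 and 13.6 without. All conditions but the 2 with Doxy lay apart. DDIT3 rose 5.63-fold at 20% O2 (log2 fold change 2.49 ± 0.06, adjusted p = 1.49e-09, edgeR) and 1.80-fold at 3% O2 (0.85 ± 0.07, adjusted p = 3.9e-05). At 3% O2 the response was 3.13-fold smaller (adjusted p = 3.74e-06). Its annotated exons share 39.6% of their bases with other genes, 355 bases of them with MARS1 on the other strand, and how reads there were counted is not given in the sources used here. As a fold change MARS1 moved less, from 213 ± 12.3 CPM (SD, n = 3) to 269 ± 8.22 at 20% O2. In CPM its rise was larger than that of DDIT3. The part of reads in shared bases in the change of DDIT3 was not tested.

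CEBPB (ENSG00000172216, chr20:50190734-50192689, plus strand) encodes C/EBP beta, a partner of ATF4 and CHOP in dimers that also drives inflammatory genes. It had 67.1, 38.9 and 37.2 CPM at 20% O2 + Doxy and 82.6, 78.6 and 78.2 at 20% O2 wo Doxy. With 3% O2, levels were 31.2, 34.0 and 51.7 CPM with Doxy and 43.5, 78.5 and 62.8 without. Its exons share 11.8% of their bases with the antisense gene CEBPB-AS1. Replicate 1 at 20% O2 + Doxy, replicate 3 at 3% O2 + Doxy and replicate 1 at 3% O2 wo Doxy each stood away from the other libraries of their condition, and the conditions at 3% O2 overlapped. CEBPB rose 1.67-fold at 20% O2 (log2 fold change 0.74 ± 0.27, adjusted p = 0.0497, edgeR). Without 20% O2 + Doxy replicate 1 this value was 1.06 (adjusted p = 0.00752), and without any other 1 of the 6 libraries the call was lost (adjusted p = 0.0931 to 0.162). At 3% O2 the value was 0.66 ± 0.27 (adjusted p = 0.168), and the 95% interval of the difference between the responses, from -0.91 to 0.75, holds both a smaller and a larger response.

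NUPR1 (ENSG00000176046, chr16:28532708-28539174, minus strand) encodes a small nuclear stress protein. Counts were 8, 6 and 8 at 20% O2 + Doxy, 100, 114 and 122 at 20% O2 wo Doxy, 2, 7 and 4 at 3% O2 + Doxy, and 16, 13 and 19 at 3% O2 wo Doxy. Mean levels were 0.236 ± 0.0192, 3.59 ± 0.378, 0.154 ± 0.104 and 0.584 ± 0.0645 CPM (SD, n = 3) in the same order. Libraries without Doxy were above those with Doxy at both oxygen levels, but the low counts with Doxy limit the precision. NUPR1 rose 14.9-fold at 20% O2 (log2 fold change 3.90 ± 0.32, adjusted p = 6.63e-06, edgeR), 25th among all 16891 genes, and 3.82-fold at 3% O2 (1.93 ± 0.44, adjusted p = 0.00917). Without 3% O2 + Doxy replicate 2, the value at 3% O2 was 2.53. The response was smaller at 3% O2 by 1.97 on the log2 scale (adjusted p = 0.0383), and this call was lost in 9 of 12 fits that each left out 1 library, with a difference of -1.37 (adjusted p = 0.326) without 3% O2 + Doxy replicate 2.

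PPP1R15A (ENSG00000087074, chr19:48872392-48876057, plus strand) encodes GADD34, which brings protein phosphatase 1 to eIF2alpha and so ends the stress response. Its promoter window held TGACGTCA. Levels were 112, 87.6 and 79.0 CPM at 20% O2 + Doxy and 248, 253 and 243 at 20% O2 wo Doxy. At 3% O2 they were 82.0, 85.6 and 114 with Doxy and 177, 193 and 169 without. The 2 conditions with Doxy overlapped and the other conditions stood apart. PPP1R15A rose 2.67-fold at 20% O2 (log2 fold change 1.41 ± 0.14, adjusted p = 2.46e-05, edgeR) and 1.92-fold at 3% O2 (0.94 ± 0.14, adjusted p = 0.0028). The difference was -0.47 (95% interval from -0.90 to -0.04, adjusted p = 0.171), and it passed the threshold without 20% O2 + Doxy replicate 1 (-0.63, adjusted p = 0.0444).

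TRIB3 (ENSG00000101255, chr20:362835-397559, plus strand) encodes a pseudokinase that restrains ATF4 and AKT. It was at 38.1, 29.4 and 25.9 CPM at 20% O2 + Doxy and at 54.7, 56.6 and 54.0 at 20% O2 wo Doxy. At 3% O2 the levels were 24.9, 27.1 and 34.2 CPM with Doxy and 26.5, 34.3 and 29.3 without. Only the 20% O2 wo Doxy libraries stood apart. TRIB3 rose 1.77-fold at 20% O2 (log2 fold change 0.82 ± 0.15, adjusted p = 0.0016, edgeR), and at 3% O2 the value was 0.06 ± 0.15 (95% interval from -0.27 to 0.40, adjusted p = 0.842). The difference of -0.76 (95% interval from -1.23 to -0.29) had an adjusted p of 0.0579, and its call depended on the processing. It passed the threshold with DESeq2's size factors (adjusted p = 0.0486), no filter (0.0354), a minimum of 10 counts in every library (0.0302) and DESeq2's Wald test (0.00759), not with the replicate block (0.124), and without 20% O2 + Doxy replicate 1 it was -0.94 (0.0135).

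CHAC1 (ENSG00000128965, chr15:40952962-40956519, plus strand) encodes an enzyme that breaks down glutathione. Its levels were 4.28, 3.04 and 2.47 CPM at 20% O2 + Doxy, 11.8, 11.1 and 11.0 at 20% O2 wo Doxy, 2.72, 2.94 and 4.17 at 3% O2 + Doxy, and 3.34, 2.78 and 3.03 at 3% O2 wo Doxy. The 9 libraries other than 20% O2 wo Doxy overlapped. CHAC1 rose 3.47-fold at 20% O2 (log2 fold change 1.79 ± 0.20, adjusted p = 5.82e-05, edgeR) and had a value of -0.11 ± 0.21 at 3% O2 (95% interval from -0.56 to 0.35, adjusted p = 0.798). The response at 3% O2 was lower by 3.73-fold (adjusted p = 0.00353).

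SESN2 (ENSG00000130766, chr1:28259527-28282491, plus strand) encodes Sestrin2, which holds back the growth kinase mTORC1 when leucine is short. It had 16.6, 14.1 and 12.1 CPM at 20% O2 + Doxy and 49.0, 47.7 and 46.8 at 20% O2 wo Doxy. The 3% O2 libraries had 12.1, 13.4 and 19.5 CPM with Doxy and 14.1, 20.9 and 19.7 without, so the 2 conditions overlapped. SESN2 rose 3.35-fold at 20% O2 (log2 fold change 1.74 ± 0.19, adjusted p = 4.36e-05, edgeR). At 3% O2 the value was 0.28 ± 0.19 (95% interval from -0.13 to 0.69, adjusted p = 0.405), and the response was smaller there by 2.76-fold (adjusted p = 0.00839).

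DDIT4 (ENSG00000168209, chr10:72273920-72276036, plus strand) encodes REDD1, another inhibitor of mTORC1 and a known HIF-1 target, and its promoter window held ACGTG. That pattern was in 21.4% of all promoter windows and in windows of 24.9% of genes, ATF4 among them. Levels were 5.21, 5 and 4.17 CPM at 20% O2 + Doxy and 19.7, 20.0 and 18.4 at 20% O2 wo Doxy. At 3% O2 they were 25.5, 34.8 and 33.9 CPM with Doxy and 33.4, 36.4 and 43.6 without. The order of the conditions was therefore its own, with 3% O2 above 20% O2 whether or not FDX2 was expressed. DDIT4 rose 4.04-fold with FDX2 loss at 20% O2 (log2 fold change 2.01 ± 0.14, adjusted p = 2.46e-06, edgeR), and at 3% O2 the value was 0.27 ± 0.13 (95% interval from -0.01 to 0.55, adjusted p = 0.238). The response was 3.35-fold smaller at 3% O2 (adjusted p = 7e-04). An antisense gene, DDIT4-AS1, overlaps 41.2% of its exonic bases. Its counts at 20% O2 were 4, 7 and 8 with Doxy and 22, 31 and 32 without (0.206 ± 0.0679 and 0.909 ± 0.178 CPM, SD, n = 3), a rise beside that of DDIT4. At 3% O2 they were 62, 46 and 5 with Doxy and 118, 9 and 18 without, where DDIT4 had 788, 912 and 1049, then 831, 917 and 1398 counts. Since the strand setting is not given, reads of DDIT4 and DDIT4-AS1 cannot be told apart in the shared bases.

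**Figure D2:**
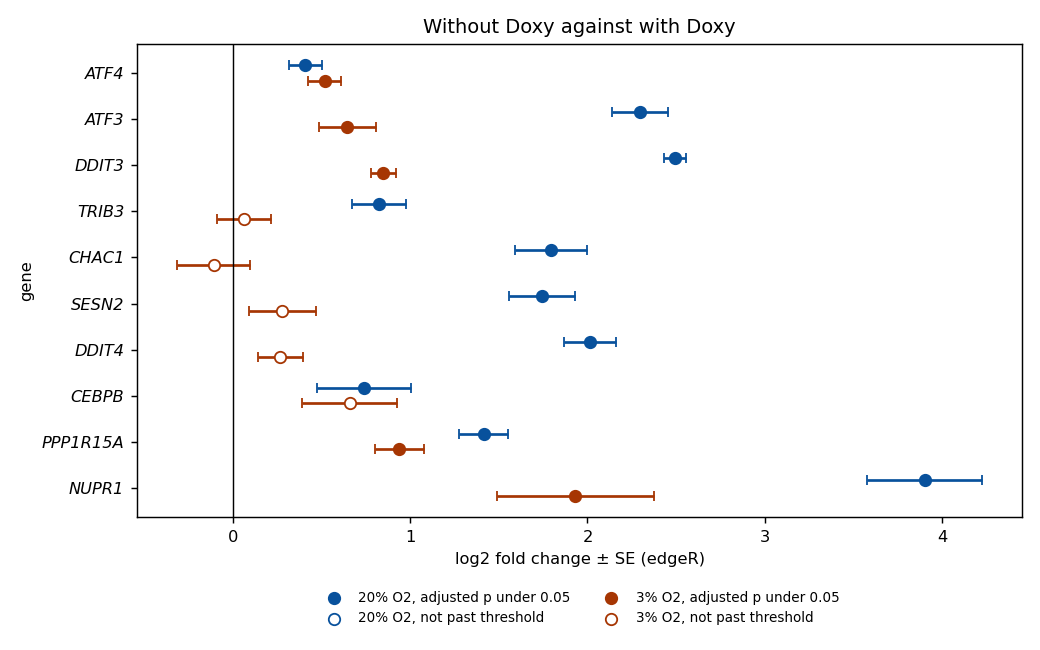
Log2 fold change without Doxy against with Doxy for each gene (x axis, with SE) at 20% O2 (blue, upper) and 3% O2 (brown, lower). Filled points passed an adjusted p of 0.05. All 10 blue points are filled and 5 of 10 brown ones, and ATF4 and CEBPB are the genes whose 2 points lie closest.

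Between 3% and 20% O2 with Doxy, 1 of the 10 genes was called. The cells at 3% O2 also had 1 more day in culture. With Doxy, DDIT4 was 6.56-fold higher at 3% than at 20% O2 (log2 fold change 2.71 ± 0.15, adjusted p = 3.01e-06, edgeR), 12th among all genes, and no stress regulator was called lower. In this comparison 2.02% of all genes were called, 1.63% higher and 0.385% lower, and 15.4% of tested genes, among them DDIT4 but no other of the 10, had libraries that lay apart. The values of the other 9 lay between -0.64 (NUPR1, with 2 to 8 counts per library) and 0.07 (SESN2). Their 95% intervals were from -1.74 to 0.45 for NUPR1 and from -0.34 to 0.49 for SESN2. HIF-1 target genes moved with DDIT4 in this comparison. All 9 tested genes of that list were called higher (median log2 fold change 1.40), and EGLN3 was not tested. CA9, a carbonic anhydrase, went from 2 to 3 counts per library to 1248 to 2699. ADM, which encodes adrenomedullin, rose by 2.98 on low counts, with 2, 3 and 1 at 20% O2 and 4, 21 and 22 at 3% O2.

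Without Doxy, 7 stress regulators were lower at 3% than at 20% O2 and DDIT4 was higher, against 25.8% of all genes called, 11.9% lower and 13.9% higher. The 8 genes called also had libraries that lay apart, as did 49.4% of tested genes. NUPR1 was lower by 6.11-fold (log2 fold change -2.61 ± 0.30, adjusted p = 0.00017, edgeR), 11th from the bottom of all genes. ATF3 was 3.80-fold lower, CHAC1 3.71-fold, DDIT3 3.17-fold, SESN2 2.62-fold, TRIB3 1.84-fold and PPP1R15A 1.38-fold. DDIT4 was higher by 0.97 ± 0.13 on the log2 scale (adjusted p = 0.000489). ATF4 (-0.06, 95% interval from -0.26 to 0.14) and CEBPB (-0.37, 95% interval from -0.95 to 0.21) did not pass the threshold. Same-numbered replicates deviated together in this pair of conditions, and with the replicate number as a block PPP1R15A (-0.46, adjusted p = 0.0305) was no longer called in the fit to all libraries (adjusted p = 0.0648) but was called in the fit to the 6 libraries compared (adjusted p = 0.00459). It also missed the threshold when any 1 of these 6 was left out (adjusted p = 0.0538 to 0.0915). This comparison and that of FDX2 loss at 20% O2 share the 20% O2 wo Doxy libraries.

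**Figure D3:**
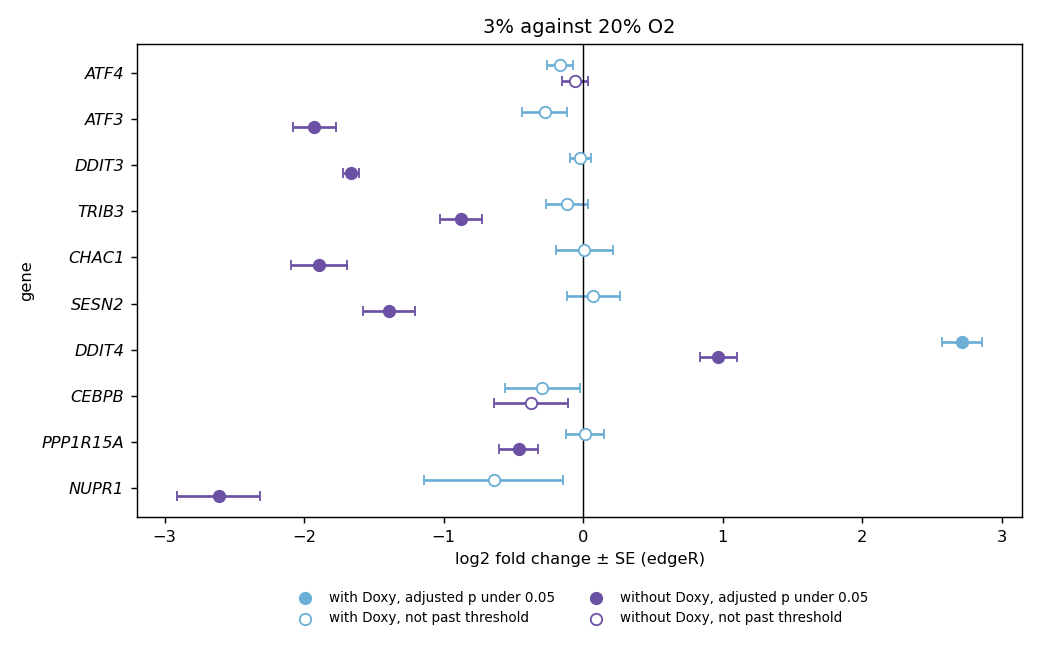
Log2 fold change at 3% against 20% O2 for each gene (x axis, with SE) with Doxy (light blue, upper) and without Doxy (purple, lower). Filled points passed an adjusted p of 0.05. With Doxy only DDIT4 is filled, at 2.71, and without Doxy the 7 filled points below 0 run from -2.61 (NUPR1) to -0.46 (PPP1R15A).

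At 20% O2 the coefficients of variation of the 10 genes ran from 3.33% (DDIT3) to 35.2% (CEBPB) with Doxy and from 1.81% (DDIT3) to 10.5% (NUPR1) without. In 20% O2 + Doxy replicate 1, 9 of the 10 genes were above the mean of their condition (median deviation 0.26 on the log2 scale), and in replicate 3 none was (-0.22). In 3% O2 + Doxy replicate 3, 8 of the 10 were above (0.23). The trend of counts with GC content was taken relative to the condition mean. It was 0.18, -0.05 and -0.12 log2 units per 10 points of GC in replicates 1 to 3 at 20% O2 + Doxy. At 3% O2 + Doxy it was -0.09, -0.07 and 0.16, while at 20% O2 wo Doxy it stayed between -0.04 and 0.03. At 3% O2 wo Doxy it was -0.06, 0.09 and -0.03, and replicate 2 there had 6 of the 10 genes above the mean of its condition (median deviation 0.02). The part of this trend in the deviations was not tested. CEBPB has the highest GC content of the 10 (66.2%), and DDIT3 is at 49.7%. A GC correction chosen after seeing the data removed each library's GC trend against the mean of all 12 libraries. It therefore also removed differences between conditions that followed GC content, and the fold changes themselves moved. With FDX2 loss at 20% O2, CEBPB went from 0.74 to 1.11 and ATF4 from 0.41 to 0.56. With this correction the difference between the responses passed the threshold in 9 of the 10 genes (edgeR). The added ones were TRIB3 (-1.07, adjusted p = 8.78e-07), PPP1R15A (-0.71, adjusted p = 4.06e-05) and CEBPB (-0.58, adjusted p = 0.00899), and ATF4 stayed uncalled (-0.06, adjusted p = 0.751). Under the same correction, FDX2 loss at 3% O2 also raised CEBPB (0.53, adjusted p = 0.00221), and ATF4 (-0.26, adjusted p = 0.0227) and CEBPB (-0.83, adjusted p = 3.7e-05) were called lower at 3% O2 without Doxy. It called 3096 genes for the difference in place of 1231.

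**Figure D4:**
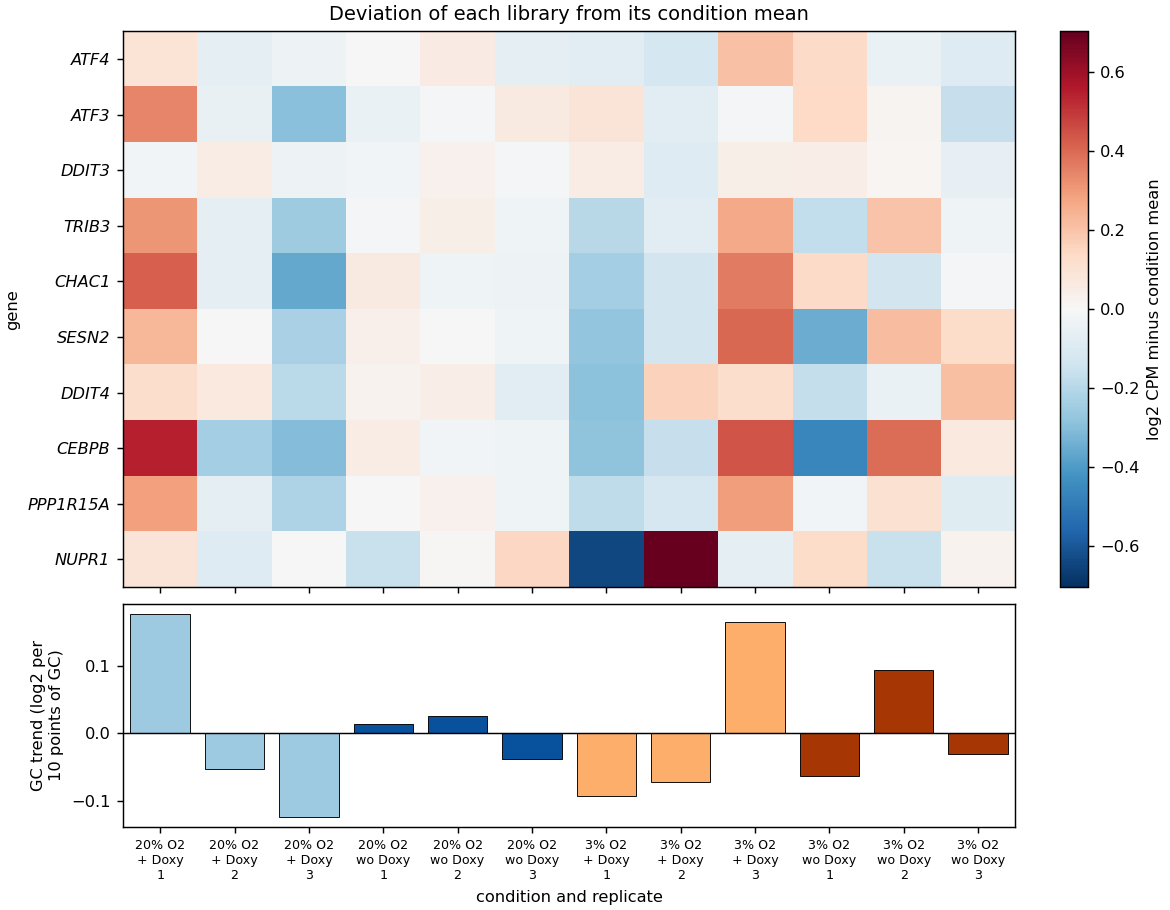
Upper panel, deviation of each library from the mean of its condition for each gene (log2 CPM, red above and blue below). Lower panel, slope of each library's deviation from its condition mean against transcript GC content (log2 units per 10 points of GC). Replicate 1 at 20% O2 + Doxy and replicate 3 at 3% O2 + Doxy have slopes of 0.18 and 0.16, the highest of the 12, and mostly red columns above them.

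A list of 22 genes held the eIF2alpha kinases, subunits of eIF2 and of its exchange factor eIF2B, and controls of the kinases and phosphatase. With FDX2 loss at 20% O2, 1 of the 22 was higher and 3 were lower, where 35.3% of all genes were called, and at 3% O2 none was called (edgeR, 5 at an unadjusted p under 0.05), where 7.31% of all genes were. The median log2 fold changes of the list were -0.02 and -0.09. At 20% O2 the values were -0.10 for EIF2AK1 (HRI, the kinase downstream of DELE1), -0.02 for EIF2AK2 (PKR), -0.02 for EIF2AK3 (PERK), -0.03 for DELE1 and -0.02 for OMA1, none past the threshold. EIF2AK4 (GCN2, the kinase that senses uncharged tRNA) fell by 0.19, PPP1CA, a catalytic subunit of phosphatase 1, fell by 0.37, GCN1, the activator of GCN2, fell by 0.34, and EIF2S3, a subunit of eIF2, rose by 0.30. These are mRNA levels, and kinase activity was not measured in these libraries. PPP1R15B, the constitutive partner of the phosphatase, had values of -0.05 at 20% and -0.15 at 3% O2, neither past the threshold.

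Among the 14 relatives of the stress regulators, 10 could be tested, and CEBPA, CEBPE, DDIT4L and NUPR2 had at most 1 count in any library. FDX2 loss at 20% O2 raised 3, namely CEBPG (0.88 ± 0.07, adjusted p = 4.43e-06, edgeR), which encodes a dimer partner of ATF4, SESN3 (0.93 ± 0.10, adjusted p = 3.91e-05), a sestrin like SESN2, and JDP2, a bZIP factor related to ATF3. JDP2 had no count in the 3 libraries at 20% O2 + Doxy and 13, 16 and 18 counts at 20% O2 wo Doxy, so it was at least 5.15-fold higher, taking 3 counts per library as the floor. JDP2 passed the filter on low counts only through its libraries at 20% O2 wo Doxy. Its call therefore cannot be set against the share of all genes. None of the 10 was called at 3% O2 (4 at an unadjusted p under 0.05). Of all genes, 17.6% were called higher at 20% O2, and 7.31% were called at 3% O2. CEBPG was at 55.7 ± 1.06 CPM (SD, n = 3) at 20% O2 wo Doxy and at 29.3 ± 1.23 at 3% O2 wo Doxy, and the difference between the responses was -0.93 (adjusted p = 0.000531) for CEBPG and -0.58 (adjusted p = 0.0308) for SESN3. The remaining relatives had values at 20% O2 of 0.06 for ATF5, 0.27 for CEBPD, 0.14 for TRIB1, 0.16 for TRIB2, -0.13 for CHAC2 and -0.33 for SESN1, none past the threshold.

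Of 24 ATF4 target genes of metabolism and secretion, 23 were tested (FGF21 was not). FDX2 loss at 20% O2 raised 12 and lowered 1, with a median log2 fold change of 0.44. Of all genes, 17.6% were called higher there and 17.7% lower. GDF15, a secreted stress cytokine, rose by 3.46 ± 0.25 (SE) and SLC6A9, a glycine transporter, by 2.49 ± 0.26, while ALDH18A1, the first enzyme of proline synthesis, fell by 0.61. At 3% O2, 2 rose and 4 fell (median -0.07), where 4.2% of all genes were called higher and 3.11% lower. Of the list's genes called there, GDF15 rose by 1.81 and SLC3A2, the heavy chain of amino acid exchangers, by 0.29. VLDLR, a lipoprotein receptor, fell by 0.47, and PSAT1, an enzyme of serine synthesis, fell by 0.33. For the difference between the responses 12 of the 23 were lower and 1 was higher, against 4.08% and 3.21% of all genes. ASNS, asparagine synthetase, had the largest such difference in the list (-2.13, adjusted p = 0.00434, edgeR), at 5.56 ± 0.743 CPM (SD, n = 3) at 20% O2 wo Doxy against 1.13 ± 0.248 at 3% O2 wo Doxy. Without Doxy, 11 of these genes were lower at 3% O2 and 2 were higher, against 11.9% and 13.9% of all genes. With Doxy none was lower and 2 were higher (VLDLR and STC2), against 0.385% and 1.63% of all genes.

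For the lists in this paragraph, the shares of all genes called with FDX2 loss at 20% O2 were 17.6% higher and 17.7% lower. At 3% O2 they were 4.2% and 3.11%. Of 15 endoplasmic reticulum targets of ATF6 and XBP1, 3 rose and 10 fell with FDX2 loss at 20% O2 (median -0.25). DNAJB9, a co-chaperone, rose by 0.74 and XBP1, itself a regulator of this response, by 0.69, whereas SDF2L1 fell by 0.98 and CRELD2 fell by 0.55. At 3% O2 the 2 genes called were both lower, HSPA5 (BiP, the main chaperone of the compartment) at -0.36 and HSP90B1, another chaperone, at -0.22. Of 6 death genes linked to CHOP, PMAIP1 (NOXA) rose by 0.54 and TNFRSF10B, a death receptor, by 0.21 at 20% O2, and BCL2L11 (BIM) fell by 0.42 and ERO1A fell by 0.31. BCL2L11 was also lower at 3% O2 (-0.59). Of 8 p53 targets, 2 rose at 20% O2 (GDF15, which is also in the ATF4 list, and ZMAT3 by 0.47) and MDM2, the ligase that limits p53, fell by 0.35. HIF-1 targets divided at 20% O2, where 3 rose, among them ADM (2.22) and VEGFA (1.37), and 2 fell, ANKRD37 (-0.58) and BNIP3 (-0.26). ADM had only 2, 3 and 1 counts there with Doxy and 7, 14 and 9 without. With FDX2 loss at 3% O2, 3 of the 9 tested HIF-1 targets were lower and none was higher. Of the p53 targets, 1 was higher and 1 was lower there.

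Across the 12 libraries, the genes whose log2 CPM followed each stress regulator most closely were sought among the 10757 tested genes whose mean level reached 5 CPM. The measure was Pearson's r, and since the libraries form 4 conditions it reflects mostly the condition means. ATF4 was closest to CSNK1A1 (0.968) and PFDN1 (0.966), ATF3 to DUSP1 (0.985) and CHMP1B (0.983), and DDIT3 to SAT1 (0.995) and IL1B (0.994). CHAC1 was closest to AARS1 (0.986), the alanyl-tRNA synthetase, and HERPUD1 (0.976), an endoplasmic reticulum stress gene. SESN2 was closest to IL11 (0.992) and ZNF333 (0.988), TRIB3 to ARHGEF2 (0.982) and FHL2 (0.977), and CEBPB to CCNL2 (0.978) and IRS2 (0.978). PPP1R15A was closest to FRAS1 (0.991) and VAT1 (0.99), NUPR1 to SLC12A2-DT (0.988) and CAMK2D (0.984), and DDIT4 to LINC02547 (0.98) and APOLD1 (0.98). No gene appeared for more than 1 stress regulator.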

How the data were processed

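Poly(A) RNA of 12 libraries was sequenced in paired-end mode on DNBSEQ-T7, and alignment by the authors used STAR and GRCh38, followed by featureCounts. The deposited table was treated as raw counts, since it holds only whole numbers whose totals differ between libraries, although the series text speaks of counts normalized by DESeq2. Versions, annotation and strand setting are not given in the sources used here. For 2 libraries (20% O2 + Doxy replicates 1 and 2) the labels state that part of the raw reads was lost, and their counts were kept. Gene identifiers matched GENCODE 29 (58735 of 58735), which gave positions, exons and GC content; 58207 matched a symbol.

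The main test was edgeR's quasi-likelihood test (edgeR 4.0.16 on R 4.3.3, with limma 3.58.1), and DESeq2 1.42.0 served as an alternative. The filter was filterByExpr (minimum count 10, minimum total 15) and the scaling TMM. All 12 libraries entered 1 fit with a mean for each of the 4 conditions, which left 8 residual degrees of freedom. Adjusted p is Benjamini-Hochberg over all 16891 tested genes (threshold 0.05, no minimum fold); only the rows of the stress regulators and lists are given. Standard errors come from the model and were not allowed below counting error; intervals cover 95%. Levels are TMM-scaled CPM. The scripts were tested on simulated counts.

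The stress regulators and the lists were chosen with earlier results of these data known. Named were all 10 stress regulators, FDX2, at most the 2 largest increases and decreases past the threshold per list and comparison, for kinases and relatives also genes that did not pass, and the 2 genes most alike to each stress regulator (prior count 2).

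Replicate numbers come from the sample titles. Deviations from condition means, correlated across genes, gave 0.25 to 0.409 for same-numbered libraries and -0.473 to 0.096 for the others between 20% O2 wo Doxy and 3% O2 wo Doxy; in no other pair of conditions were all same-numbered correlations above 0.1. Alternatives were DESeq2's size factors, no filter or a minimum of 10 counts in all libraries, a block for the replicate number, a fit to the compared libraries alone, DESeq2's Wald test, an adjusted p under 0.01, a 2-fold minimum and leaving out each library. A GC correction (a lowess trend with span 0.3, fitted where log2 CPM exceeded 2) was added after seeing the data. Its trend was that of each library's deviation from the mean of all 12 libraries, not from its condition mean.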

Additional observations from a re-analysis of the deposited data

Results flagged for a closer look

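In 6 of the 10 stress regulators the effect of FDX2 loss differed between 3% and 20% O2 by the test of the difference itself (edgeR, adjusted over 16891 genes). The differences on the log2 scale were -1.65 for ATF3, -1.64 for DDIT3, -1.90 for CHAC1, -1.46 for SESN2, -1.74 for DDIT4 and -1.97 for NUPR1. In ATF3, DDIT3, CHAC1, SESN2 and NUPR1 the levels with Doxy overlapped between the oxygen conditions, and the levels without Doxy were lower at 3% O2. In DDIT4 the level with Doxy was already higher at 3% O2, at 31.4 ± 5.14 CPM (SD, n = 3) against 4.80 ± 0.548 at 20% O2.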

How the results depend on the processing

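Of 423 fold changes of the stress regulators recomputed under alternatives other than leaving out a library and the 2-fold minimum, which is given below as counts only, 389 kept their direction and their side of the threshold, 18 lost the call, 10 gained one (5 of them the difference of TRIB3) and 6 changed sign. None of those that changed sign was called: with Doxy between oxygen levels CHAC1 went to -0.0007 with DESeq2's size factors and -0.0063 without a filter, and PPP1R15A to -0.0032 without a filter and -0.0056 with the GC correction. That correction also took TRIB3 at 3% O2 to -0.0074 and the difference between responses of ATF4 to -0.0644. Of 360 values with 1 library left out, 314 kept both, 25 lost the call, 2 gained one and 19 changed sign, all uncalled. With 1 library left out, values with a change of sign ran between oxygen levels with Doxy from -0.262 to 0.0454 for TRIB3, -0.552 to 0.0225 for CEBPB, -0.0474 to 0.0219 for DDIT3, -0.207 to 0.242 for CHAC1, -0.151 to 0.159 for PPP1R15A and -0.162 to 0.208 for SESN2, at 3% O2 from -0.0447 to 0.208 for TRIB3 and -0.228 to 0.106 for CHAC1, and for the difference from -0.412 to 0.182 for CEBPB.

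The count of stress regulators called at 3% O2 went from 5 to 2 in the fit to the compared libraries alone, to 0 with the replicate block in those libraries (every adjusted p between 0.129 and 0.898) and to 1 with a 2-fold minimum, which also left 7 of 10 at 20% O2, 5 of 8 between oxygen levels without Doxy and all 6 of the difference. With 1 library left out the counts were 9 to 10, 4 to 5, 1, 7 and 5 to 7 for FDX2 loss at 20% O2, at 3% O2, oxygen with Doxy, oxygen without Doxy and the difference. The replicate block over all libraries called 9, 4, 1, 7 and 5, the calls lost being CEBPB at 20% O2 (adjusted p = 0.0917), ATF3 at 3% O2 (0.0528), PPP1R15A between oxygen levels without Doxy (0.0648) and the difference of NUPR1 (0.0859). Only in the oxygen comparison without Doxy did all same-numbered libraries deviate together. Whether a replicate number marks anything shared is not given in the sample titles.

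Genes called in all changed by over 1.5 times as follows, with the cause not tested. FDX2 loss at 3% O2 called 678 in place of 1235 without a filter, 676 with the block, 218 in the compared libraries alone, 1 with the block there, 1944 with DESeq2 and 3249 with the GC correction. The difference called 672 in place of 1231 without a filter, 615 with the block, 1916 with DESeq2 and 3096 with the GC correction. Its split of 542 higher and 689 lower turned to 966 and 950 with DESeq2 and to 1251 and 940 without 3% O2 + Doxy replicate 3. Oxygen with Doxy called 218 in place of 341 with the block, 128 in the compared libraries alone, 12 with the block there, 629 with DESeq2 (412 higher, 217 lower) and 1265 with the GC correction (875 higher, 390 lower, against 276 and 65). An adjusted p under 0.01 left 3645, 404, 181, 1975 and 382 genes, and a 2-fold minimum 910, 118, 92, 451 and 186, both in the order given above. With 1 library left out these counts were 4423 to 5575, 581 to 1605, 190 to 388, 2321 to 4200 and 520 to 2191. DESeq2 split the calls at 3% O2 into 839 higher and 1105 lower, against 709 and 526. NUPR1, at 2 to 8 counts with Doxy, did not pass a minimum of 10 counts in every library.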
